A study of Mus musculus with 6 samples.

Results

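The 33 genes described here are Trp53, which encodes the tumour suppressor p53, its 2 paralogs, its regulators and a set of its target genes. They were chosen by gene symbol from a list drawn up with earlier results of these data known. All 33 were found among the 22105 features of the deposited table that carry a gene identifier. The values come from mRNA sequencing of the mouse mammary carcinoma line 4T1, after 24 h in 1 of 2 conditions. The nanoparticle group (3 libraries) received CM-PEG-PLGA@DOX/R848 at an amount equal to 2 µg/mL of doxorubicin (DOX), a DNA-intercalating topoisomerase poison, carried together with R848 (resiquimod), a Toll-like receptor agonist. The control group (3 libraries) received phosphate-buffered saline (PBS), and neither the free drugs nor an empty particle is analysed here. All libraries come from 1 cell line. The labels do not state whether replicates were separate cultures, so p-values reflect only how these samples vary, and that variation may be technical.

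p53 is a transcription factor held at low levels by Mdm2, a ubiquitin ligase that is itself a p53 target, and by Mdm4, a relative of Mdm2 that blocks its transactivation domain. DNA damage activates kinases that free p53, which then switches on genes of growth arrest, cell death, DNA repair and metabolism, while cell cycle genes are held down through the inhibitor p21 and the DREAM repressor complex. 4T1 cells are generally described as lacking functional p53 protein. The deposited values are per gene and do not show which form of Trp53 RNA was made.

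Levels are in FPKM, fragments scaled by gene length and by each library's total. Comparisons of level between genes therefore rest on the length used for each gene. A gene was tested if at least 3 of the 6 libraries reached 1 FPKM, and fold changes are nanoparticle minus PBS on the log2(FPKM + 1) scale, which understates the change of low genes. A gene was called higher or lower at an adjusted p under 0.05 (limma, Benjamini-Hochberg over 10863 tested genes). Of all tested genes 86.4% were called, 40.5% as higher and 46% as lower, so a call alone sets no gene apart. Each PBS library had 13544 to 13808 genes above 0 and each nanoparticle library 18319 to 18509, and the depth of the libraries is unknown. The epithelial keratins Krt8 and Krt18 were abundant (Krt8 212 to 216 FPKM with PBS and 342 to 343 with nanoparticles), but the epithelial markers Epcam and Krt14 were under 1 FPKM in every library. Of 7 leukocyte markers, 5 were under 1 FPKM in every library, and the 7 summed to 11.2 to 12.6 FPKM in PBS libraries and 7.87 to 11.1 FPKM in nanoparticle libraries. Most of that sum was Cd14, which fell from a mean of 11.9 to 7.13 FPKM, while Csf1r, a macrophage receptor, rose from 0.0416 to 1.45 FPKM. The fibroblast marker Pdgfra fell from 20.5 to 4.76 FPKM and the endothelial marker Cdh5 from 8.42 to 1.54 FPKM. The other 5 fibroblast and 2 endothelial markers were under 1 FPKM in every library, and their means were higher with nanoparticles. Pdgfra and Cdh5 alone therefore do not show that such cells were present or lost. The part of these markers in the results was not tested. Ptprc (CD45), which defines leukocytes, was at 0 in the PBS libraries and between 0.389 and 0.612 FPKM in the nanoparticle libraries. In bulk values, less RNA per cell and fewer cells of a type cannot be told apart.

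The p53 genes did not move as a block. Plk2 and Plk3, Polo-like kinases, rose 9.28-fold and 7.93-fold, Aen, an apoptosis-enhancing nuclease, rose 6.21-fold, Tigar, a sugar bisphosphatase that lowers glycolytic flux, rose 4.39-fold, and Ckap2, a spindle protein, rose 2.60-fold. Psrc1, a microtubule-binding protein, fell 4.67-fold, and Mdm4 fell 2.52-fold. Trp53 and Mdm2 both rose 1.34-fold. Smaller falls included those of Ccng1 (1.7-fold), Ei24 (1.46-fold), Ddb2 (1.26-fold), Trp53inp1 (1.2-fold) and Fas (1.19-fold).

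Of the 33 genes, 28 were tested: 11 rose, 13 fell and 4 did not pass. The 24 calls are 85.7% of the tested genes, close to the 86.4% called among all tested genes. The libraries of the 2 groups did not overlap for 24 of the 28 genes (85.7%), beside 87.2% of all tested genes. By direction, 39.3% of the tested p53 genes were higher and 46.4% were lower, near the background of 40.5% and 46%. On the log2(FPKM + 1) scale, called changes of at least 2-fold were rises in 5 genes and falls in 2, Psrc1 and Mdm4; 10.2% and 13.5% of all tested genes were called at that size. As plain ratios of mean FPKM, Sesn1 (2.32-fold lower) and Dcxr (2-fold lower) also reached about that size. The median log2 fold change of the 28 was -0.07, beside -0.06 over all tested genes. The remaining 5 genes, Trp63, Trp73, Eda2r, Perp and Sulf2, stayed under 1 FPKM in every library.

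**Figure D1:**
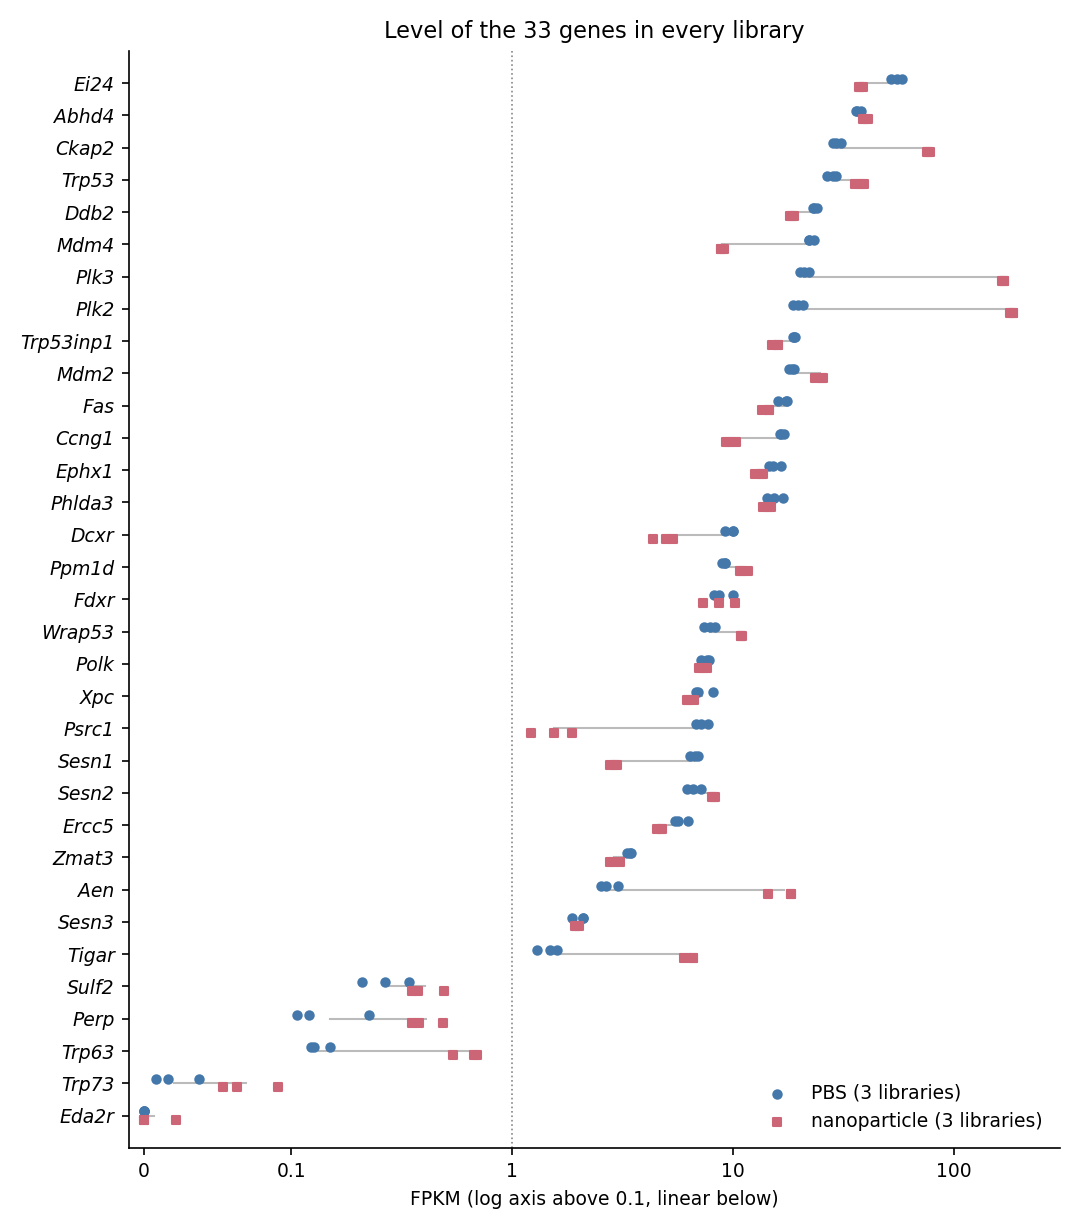
Level of the 33 genes in each of the 3 PBS libraries (circles) and 3 nanoparticle libraries (squares), in FPKM on an axis that is logarithmic above 0.1 and linear below; grey lines join the group means and the dotted line marks 1 FPKM. Plk2 and Plk3 moved from about 20 FPKM to between 165 and 185 FPKM, and 5 genes lie left of the dotted line.

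Trp53 stood at 28.4, 29.2 and 26.6 FPKM in the PBS libraries and at 39.2, 35.5 and 37.9 FPKM in the nanoparticle libraries, without overlap. Its log2 fold change was 0.41 (standard error 0.047, adjusted p = 2.18e-05, limma). The gene lies on chromosome 11, 69580359 to 69591873 (GRCm38), and spans 11.5 kb. Genes with a short genomic span were higher more often in this comparison, and with the fitted trend over span and exonic length removed the log2 fold change of Trp53 was 0.05 and no longer passed (adjusted p = 0.333, limma).

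Wrap53 lies head to head with Trp53 and encodes a protein that guides telomerase and small Cajal body RNAs; in human cells a transcript from this locus is known to pair with p53 RNA. Wrap53 measured 7.84, 7.37 and 8.25 FPKM with PBS and 10.8, 11 and 10.8 FPKM with nanoparticles (log2 fold change 0.43 with SE 0.050; limma, adjusted p = 2.32e-05). All nanoparticle values lay above all PBS values. The ratio of Trp53 to Wrap53 was 3.6 ± 0.371 with PBS and 3.45 ± 0.203 with nanoparticles (SD, n = 3 per group), with overlapping libraries. With the trend over span and length removed, Wrap53 was at 0.15 and still passed (adjusted p = 0.0242, limma). No exon of the pair overlaps in the annotation used, but the sources used here do not say whether the counting used strand.

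The stretch between the RefSeq start of Wrap53 (69580250) and that of Trp53 (69580359) is 108 bases long and is shown because both genes are read out of it, in opposite directions, and both rose. It is given on the Trp53 strand, chr11:69580251-69580358 (GRCm38.p6), with a match to the p53 decamer in capitals.
Trp53 and Wrap53: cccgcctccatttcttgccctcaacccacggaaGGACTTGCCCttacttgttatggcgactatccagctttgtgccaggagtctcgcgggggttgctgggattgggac

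The paralogs of p53 were near the floor. Trp63, a master factor of basal epithelium, measured 0.127, 0.149 and 0.123 FPKM with PBS and 0.672, 0.693 and 0.537 FPKM with nanoparticles. Trp73 measured 0.00839, 0.0164 and 0.0374 FPKM with PBS and 0.054, 0.0631 and 0.0909 FPKM with nanoparticles. Both sets of libraries were apart, but neither gene reached the level tested. Low values moved this way broadly: among 11242 genes under the filter, 40.3% had every nanoparticle library above every PBS library, and 346 genes the reverse. The basal keratin Krt14 went from between 0 and 0.13 FPKM to between 0.718 and 0.825 FPKM. The part of this general shift in the values of Trp63 and Trp73 was not tested.

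The negative regulators of p53 parted. Mdm2 measured 17.9, 18.9 and 18.5 FPKM with PBS and 23.4, 25.4 and 25.3 FPKM with nanoparticles (log2 fold change 0.40 with SE 0.043; limma, adjusted p = 1.17e-05). Mdm4 measured 21.9, 23.3 and 21.9 FPKM with PBS and 9.06, 8.81 and 8.81 FPKM with nanoparticles (log2 fold change -1.24 with SE 0.042; limma, adjusted p = 2.82e-09). For both genes the groups were apart. By FPKM their order turned over. The ratio of Mdm2 to Mdm4 was 0.816, 0.812 and 0.843 in the PBS libraries and 2.58, 2.89 and 2.87 in the nanoparticle libraries. Which of the pair stood higher depends on the gene lengths behind FPKM, but the change in their ratio does not. Mdm2 spans 21.9 kb on chromosome 10 (117688875 to 117710758) and Mdm4 spans 71.1 kb on chromosome 1 (132959484 to 133030561). With the trend over span and length removed, both kept their calls at 0.19 for Mdm2 and -0.69 for Mdm4.

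Ppm1d encodes WIP1, a phosphatase that shuts off p53 and its upstream kinases and is itself a p53 target. It measured 8.93, 9.21 and 9.2 FPKM with PBS and 10.7, 11.6 and 11 FPKM after nanoparticles (log2 fold change 0.26; limma, adjusted p = 0.000555). The libraries did not overlap, but on the TPM scale the call was lost (0.12, adjusted p = 0.0512, limma).

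Plk2 and Plk3 are Polo-like kinases that respond to growth factors and stress as well as to p53. Plk2, on chromosome 13 (110395046 to 110400844), went from 19.7, 18.6 and 20.6 FPKM to 184, 185 and 178 FPKM (log2 fold change 3.15 with SE 0.038; limma, adjusted p = 8.43e-12). Plk3, on chromosome 4 (117128655 to 117133963), went from 20, 22.1 and 20.9 FPKM to 167, 168 and 165 FPKM (log2 fold change 2.93 with SE 0.036; limma, adjusted p = 9.37e-12). By mean level the pair moved from ranks 8 and 7 among the 33 genes with PBS to ranks 1 and 2 with nanoparticles. The ratio of Plk2 to Plk3 was 0.938 ± 0.08 with PBS and 1.09 ± 0.0127 with nanoparticles (SD, n = 3 per group) and was higher in every nanoparticle library than in any PBS library. Plk3 shares 3.32% of its exonic length with Tctex1d4 on the opposite strand, a gene at 0.0876 and 0.069 FPKM in the PBS and nanoparticle groups.

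The 3 sestrins, stress proteins that restrain mTOR signalling and limit peroxides, went different ways. Sesn1, the family member most closely tied to p53, fell from 6.93, 6.68 and 6.39 FPKM to 2.78, 2.89 and 2.97 FPKM (log2 fold change -0.98 with SE 0.057; limma, adjusted p = 1.12e-07). Sesn2, which is also induced through ATF4, rose from 7.18, 6.18 and 6.56 FPKM to 8, 8.19 and 8.24 FPKM (log2 fold change 0.26 with SE 0.058; limma, adjusted p = 0.00196). Sesn3, a FOXO target, measured 2.1, 1.86 and 2.08 FPKM with PBS and 2.01, 1.92 and 1.95 FPKM with nanoparticles and did not pass (adjusted p = 0.745, limma). With PBS, Sesn1 and Sesn2 overlapped and both lay above Sesn3; with nanoparticles Sesn2 stood above Sesn1, and Sesn1 above Sesn3, in every library. The ratio of Sesn1 to Sesn2 was 1.01 ± 0.0647 with PBS and 0.353 ± 0.00647 with nanoparticles (SD, n = 3 per group). The sestrin genes differ in span (98.5 kb, 18.5 kb and 58 kb). With the trend over span and length removed, Sesn1 remained lower at -0.34, Sesn2 no longer passed (-0.01, adjusted p = 0.866, limma), and Sesn3 was called higher (0.40, adjusted p = 0.000251, limma). Sesn2 also did not pass on the TPM scale (adjusted p = 0.0675, limma).

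Among the growth arrest and cell cycle genes, 1 rose and 2 fell, too few to set beside the shares of all tested genes. Ckap2, which stabilises spindle microtubules, went from 29.2, 30.6 and 28.4 FPKM to 75.3, 76.3 and 77.7 FPKM (log2 fold change 1.35 with SE 0.034; limma, adjusted p = 4.93e-10). Psrc1 went from 7.67, 6.81 and 7.11 FPKM to 1.21, 1.55 and 1.87 FPKM, the largest fall among the p53 genes (log2 fold change -1.70 with SE 0.096; limma, adjusted p = 9.84e-08). So of these microtubule-binding proteins, 1 was higher and the other lower in every nanoparticle library. Ccng1, cyclin G1, which brings a phosphatase to Mdm2, fell from 16.9, 16.2 and 16.4 FPKM to 10.3, 9.24 and 9.61 FPKM (log2 fold change -0.71; limma, adjusted p = 3.7e-07). Psrc1 (4.39 kb) and Ccng1 (6.76 kb) are short genes that fell, against the general trend with span.

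Of the 8 cell death genes, 6 were tested, of which 1 rose, 4 fell and 1 did not pass. Among all tested genes 40.5% were higher and 46% lower, and 6 genes are too few to set apart from these shares. Aen rose from 3.01, 2.52 and 2.65 FPKM to 18.2, 14.3 and 18.3 FPKM (log2 fold change 2.26 with SE 0.094; limma, adjusted p = 1.82e-08). The nanoparticle library at 14.3 FPKM lay apart from the other 2 and still far above the PBS libraries. Ei24, an endoplasmic reticulum protein, had the highest PBS level of the 33 genes and fell from 55 ± 3.19 to 37.7 ± 0.796 FPKM (SD, n = 3 per group). Trp53inp1, a p53 cofactor that also acts in autophagy, fell from 18.8 ± 0.202 to 15.6 ± 0.528 FPKM, and Fas, the death receptor, from 16.9 ± 0.806 to 14.2 ± 0.553 FPKM. Zmat3, an RNA-binding zinc finger protein, was lower at 3.39 ± 0.0604 and 2.9 ± 0.147 FPKM (adjusted p = 0.0227, limma). Its call was lost with median-of-ratios scaling and without PBS library 1, PBS library 2, nanoparticle library 2 or nanoparticle library 3 (adjusted p up to 0.0774, limma). Phlda3, an inhibitor of AKT, did not pass at 15.4 ± 1.32 and 14.2 ± 0.598 FPKM (adjusted p = 0.135, limma), but was called lower on the TPM scale (-0.26), with the span and length trend removed (-0.56) and without PBS library 2 (-0.16, adjusted p = 0.0309, limma). Perp, a desmosome protein, measured 0.15 ± 0.0647 FPKM with PBS and 0.406 ± 0.0692 FPKM with nanoparticles. Eda2r, a receptor of the tumour necrosis factor family, was listed at 0 in every library except nanoparticle library 1, at 0.0215 FPKM.

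Of the 4 DNA repair genes, 3 were called lower, by small amounts, and 1 did not pass. Over all tested genes 46% were called lower, and 4 genes are too few to set apart from that share. Ddb2, which recognises ultraviolet lesions, went from 23.4 ± 0.6 to 18.5 ± 0.412 FPKM (log2 fold change -0.32; limma, adjusted p = 2.23e-05). Acp2 overlaps 23.8% of the exonic length of Ddb2 on the opposite strand and averaged 13.8 and 9.04 FPKM, so reads of the pair may be shared. Ercc5, the repair endonuclease XPG, went from 5.79 ± 0.417 to 4.66 ± 0.138 FPKM (adjusted p = 0.00272, limma). Xpc, the damage sensor of nucleotide excision repair, stood at 7.25 ± 0.7 and 6.35 ± 0.234 FPKM and passed narrowly (adjusted p = 0.0423, limma). The Xpc call was lost with a replicate block (adjusted p = 0.051, limma), with no filter on low values (0.0648), with median-of-ratios scaling (0.136), and without PBS library 1 (0.162), nanoparticle library 1 (0.0961) or nanoparticle library 3 (0.108). Polk, a translesion polymerase, overlapped between groups at 7.48 ± 0.326 and 7.28 ± 0.313 FPKM (adjusted p = 0.567, limma). Polk was called lower on the TPM scale (-0.18) and higher with the span and length trend removed (0.35).

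Metabolic and other targets went both ways, with 2 higher, 2 lower and 1 not passing among 5 tested. So few genes cannot be set apart from all tested genes, 40.5% higher and 46% lower. Tigar went from 1.48, 1.29 and 1.59 FPKM to 6.57, 5.98 and 6.58 FPKM (log2 fold change 1.59 with SE 0.071; limma, adjusted p = 1.77e-08). Dcxr, a carbonyl reductase, fell from 10, 10 and 9.14 FPKM to 4.97, 4.32 and 5.34 FPKM (log2 fold change -0.87 with SE 0.072; limma, adjusted p = 1.69e-06). Both genes were apart between groups in all libraries. Ephx1, the microsomal epoxide hydrolase, fell from 15.4 ± 1.04 to 13.1 ± 0.573 FPKM, a call that was lost with the span and length trend removed (-0.06, adjusted p = 0.332, limma). Abhd4, a lipase of N-acyl phospholipids, was called higher at 36.6 ± 0.943 and 39.6 ± 1.07 FPKM (log2 fold change 0.11; limma, adjusted p = 0.0131), but was at -0.04 on the TPM scale and was called lower, at -0.19, with the span and length trend removed. Fdxr, the mitochondrial ferredoxin reductase, was spread from 7.31 to 10.2 FPKM in the nanoparticle libraries around a PBS mean of 8.94 ± 0.941 FPKM and did not pass (adjusted p = 0.752, limma); with the trend removed it was called lower (-0.41). Sulf2, an extracellular heparan sulfatase, measured 0.272 ± 0.065 and 0.405 ± 0.0761 FPKM.

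**Figure D2:**
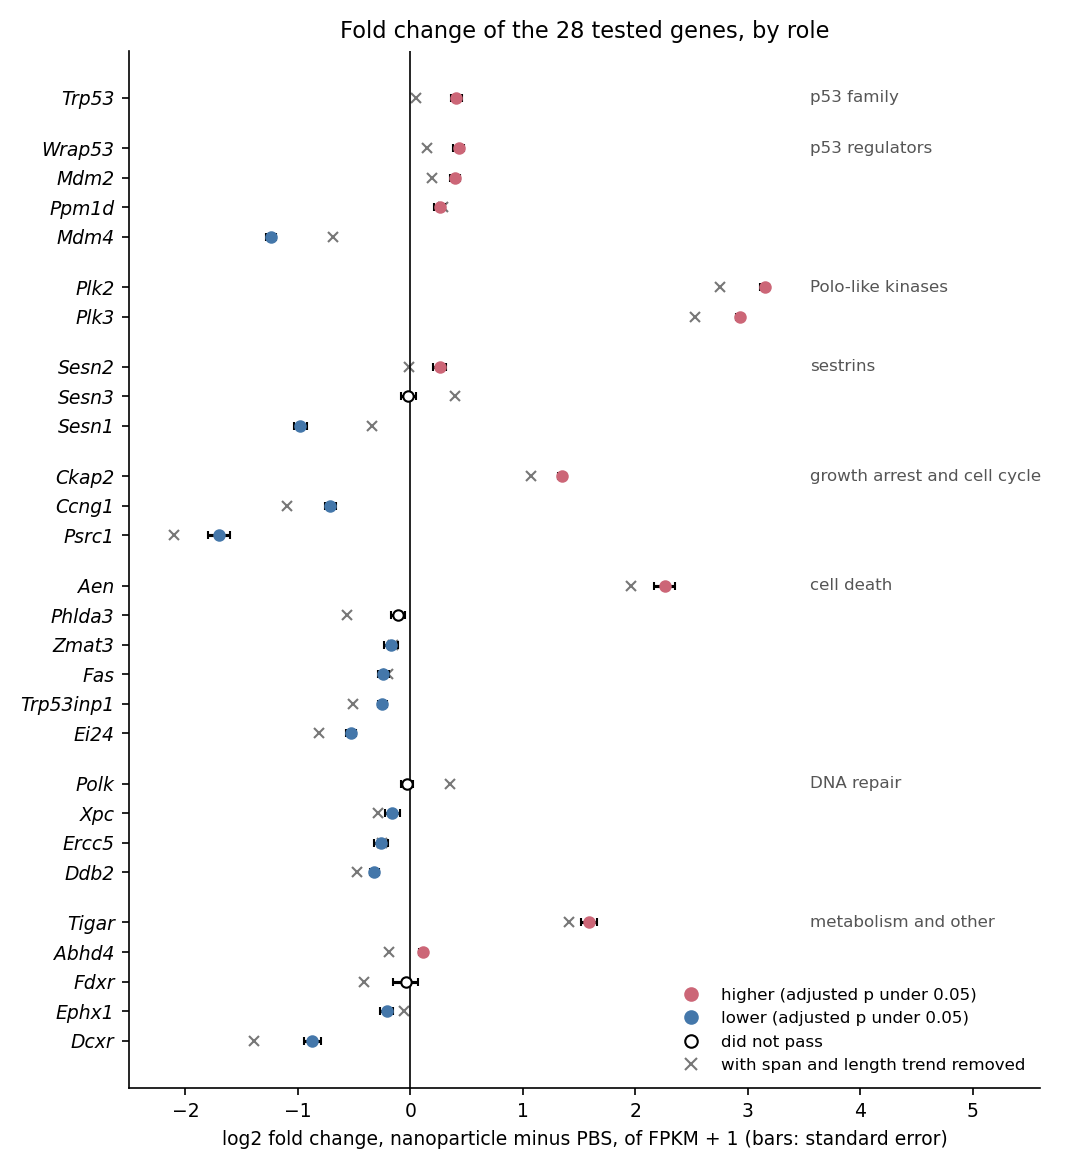
Log2 fold change of the 28 tested genes, nanoparticle minus PBS on the log2(FPKM + 1) scale, grouped by role; circles are coloured by call, bars are standard errors, and crosses give the value with the span and length trend removed. Trp53, Sesn2, Ephx1, Abhd4, Sesn3, Polk, Fdxr and Phlda3 change their call between circle and cross.

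The median span was 17.7 kb for the 11 p53 genes called higher and 26.6 kb for the 13 called lower, beside 14.1 kb and 43.8 kb over all tested genes; the gap was thus narrower among the p53 genes, a difference that was not tested. The part of span in single changes was not tested beyond the alternative with its fitted trend removed. Under that alternative 10 p53 genes were higher, 15 were lower and 3 did not pass. Of their calls 40% were higher, beside 44.6% over all tested genes. Plk2 (2.75), Plk3 (2.53), Aen (1.96), Tigar (1.41) and Ckap2 (1.07) stayed the 5 highest. The falls of Trp53inp1 (-0.51), Ei24 (-0.81), Ddb2 (-0.47), Xpc (-0.29), Ccng1 (-1.10), Dcxr (-1.39) and Psrc1 (-2.10) were larger than without that step.

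**Figure D3:**
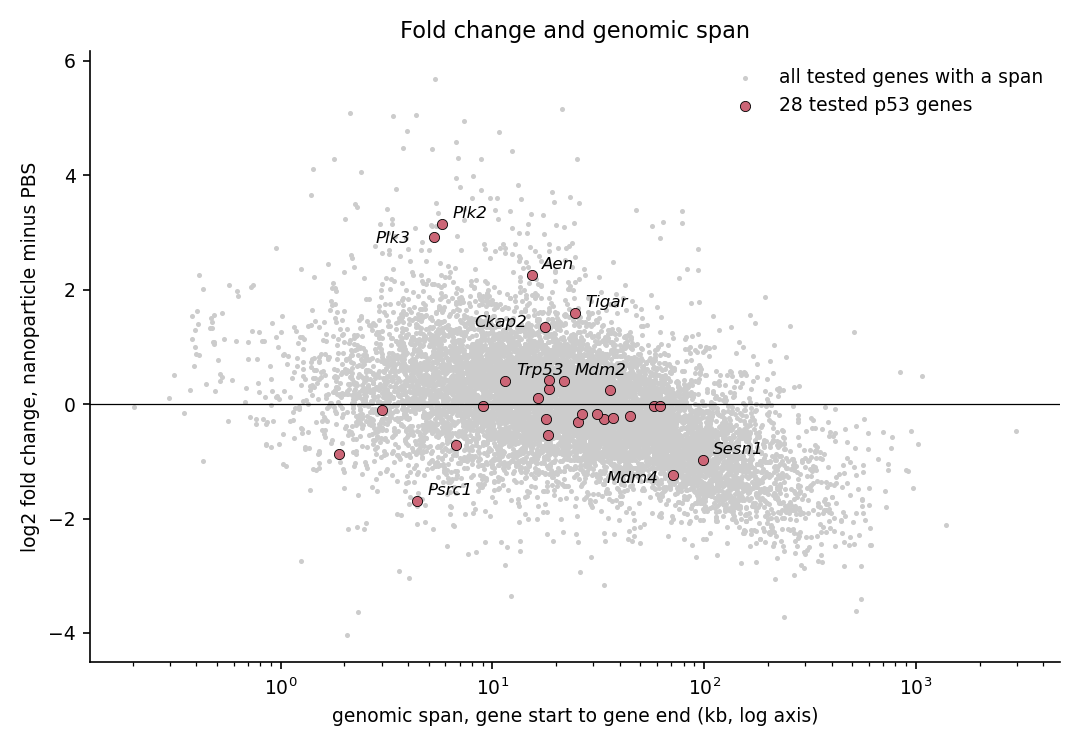
Log2 fold change, nanoparticle minus PBS, against genomic span in kb on a log axis, for all tested genes with a span (grey) and the 28 tested p53 genes (red). Mdm4 and Sesn1, at 71.1 and 98.5 kb, lie within the lower cloud of long genes, while Psrc1 is a short gene that fell.

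The promoters of the p53 genes were searched for 4 motifs on both strands, in RefSeq windows (GRCm38.p6) from 250 bases before to 50 bases after each transcript start. Symbols matched 27 of the 33 genes, with 36 windows. The p53 decamer, the unit that occurs in pairs in a p53 response element, was found in windows of 11 of the 27 genes (40.7%), beside 9.55% of all 27025 genes and 8.36% of all windows of that length in the table. These genes were partly chosen as p53 targets, and no test was made. Of the 11 genes, 7 were called higher, 3 were called lower and 1 did not pass, where 40.5% of all tested genes were higher and 46% lower. The 11 genes hold 10 distinct matches, because Trp53 and Wrap53 share 1. A link between the decamer and direction was not tested. The matches of genes that rose and of genes that fell are shown side by side on the strand of each gene, in 30 bases with the decamer in capitals.
Aen, higher, chr7:78895927-78895956, plus strand: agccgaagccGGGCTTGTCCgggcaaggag
Ckap2, higher, chr8:22186003-22186032, minus strand: ctgtgtctgaAGACATGTCCtgacttgtca
Mdm2, higher, chr10:117710925-117710954, minus strand: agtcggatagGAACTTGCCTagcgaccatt
Ppm1d, higher, chr11:85311112-85311141, plus strand: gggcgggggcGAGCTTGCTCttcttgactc
Ccng1, lower, chr11:40755452-40755481, minus strand: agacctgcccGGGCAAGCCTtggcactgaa
Ei24, lower, chr9:36797325-36797354, minus strand: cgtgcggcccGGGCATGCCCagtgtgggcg
Sesn1, lower, chr10:41887256-41887285, plus strand: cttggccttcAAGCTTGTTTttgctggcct

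The other 4 genes with a decamer were Trp53 and Wrap53, which share 1 match in the stretch printed above, Abhd4 and Polk. A decamer was thus present in genes that rose 6.21-fold (Aen) and in genes that fell 2.32-fold (Sesn1). The Sesn1 match (41887266 to 41887275) lies by a RefSeq start far inside the annotated gene (41809935 to 41908424). Values per gene do not show whether RNA from that start fell. No decamer lay in the windows of Plk2, Plk3, Tigar, Psrc1 or Dcxr. The cyclic AMP response element TGACGTCA was found in Plk2 and Ppm1d, both higher. That is 7.41% of the 27 genes, beside 2.03% of all genes, and rests on these 2 genes alone. The CArG box, which serum response factor binds, was found in Tigar alone, 3.7% of the 27 genes beside 1.81% of all genes. The cell cycle motif CHR (TTTGAA) was found in Aen, Ckap2, Ercc5, Fas and Fdxr. That is 18.5% of the 27 genes, close to the 20.2% of all genes. None of these shares was tested. No match of 1 motif overlapped a match of another in these genes.
Plk2, chr13:110394971-110395000, plus strand, the response element in capitals: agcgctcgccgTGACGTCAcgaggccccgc
Tigar, chr6:127109610-127109639, minus strand, the CArG box in capitals: tcaggctccaCCTTTATTGGcaaccctgtg

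**Figure D4:**
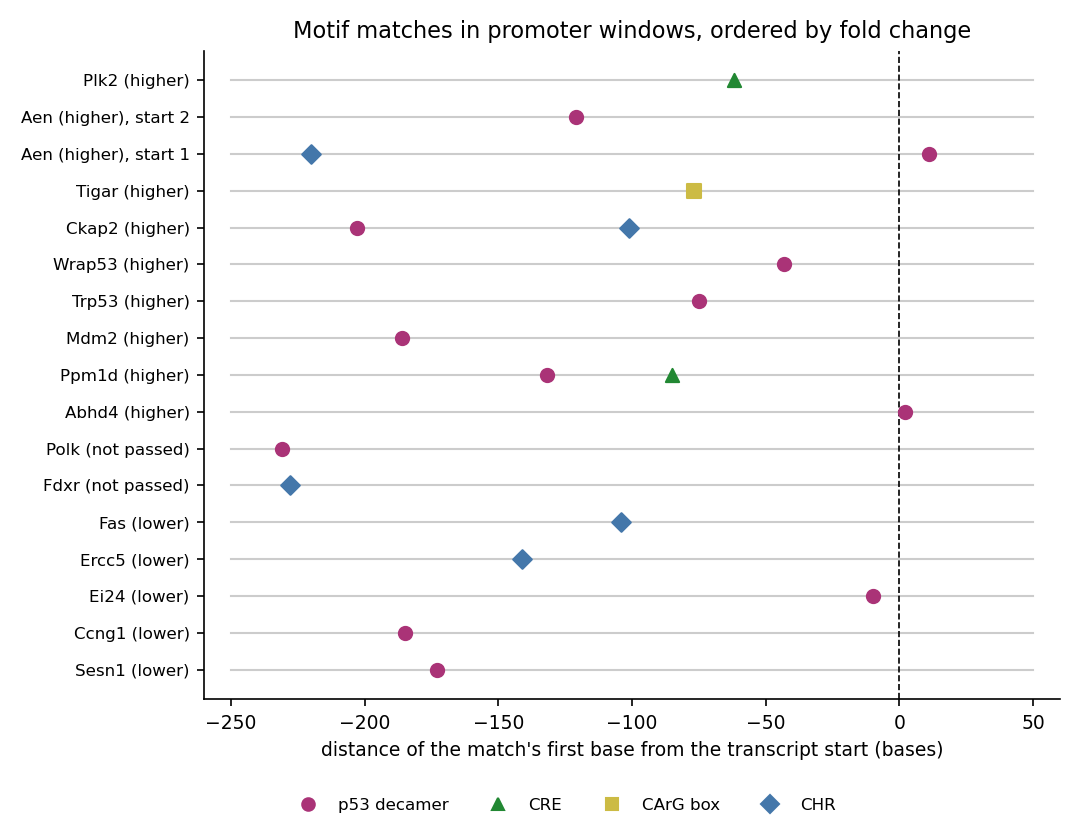
Position of each motif match in the promoter windows of the p53 genes that hold 1 or more, as the distance in bases of its first base from the transcript start (dashed line), with genes ordered by log2 fold change. Decamer matches occur in genes called higher, lower and not passing.

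Other genes of the pathway were taken from 3 lists that hold none of the 33 genes. These lists, too, were chosen with earlier results of these data known. Of 30 regulators and cofactors of p53, 28 were tested: 9 rose, 15 fell and 4 did not pass, with a median log2 fold change of -0.16. The shares were 32.1% higher and 53.6% lower, beside 40.5% and 46% of all tested genes, a difference that was not tested. With the span and length trend removed, 12 were higher and 12 lower, with a median of -0.01. Under that setting 4061 of all 10836 genes were higher and 5037 lower, with a median of -0.08. By log2 fold change of FPKM + 1, the largest rises were those of Daxx, a histone chaperone that binds Mdm2 (16.6 ± 0.491 to 60.9 ± 1.84 FPKM), Sirt1, a p53 deacetylase (10.4 ± 0.404 to 31.7 ± 1.9 FPKM), and Prmt5, an arginine methyltransferase (33.2 ± 1.45 to 62.1 ± 2.1 FPKM). On the same scale, the largest falls were those of the ubiquitin ligases Ube4b (28.2 ± 0.169 to 8.78 ± 0.119 FPKM) and Cop1 (16 ± 0.449 to 5.37 ± 0.319 FPKM), which both target p53, and of the acetyltransferase Crebbp (4.39 ± 0.0613 to 1.73 ± 0.0227 FPKM, all SD, n = 3 per group). The 3 that fell most span 98.3, 115 and 133 kb, and Crebbp no longer passed with the span and length trend removed (-0.09, adjusted p = 0.159, limma). Atm, the kinase that answers double-strand breaks, measured 3.53 ± 0.0658 and 3.74 ± 0.204 FPKM and did not pass (adjusted p = 0.344, limma), but was called higher, at 0.77, with that trend removed. Cdkn2a, which encodes the Mdm2 inhibitor ARF, was listed at 0 in every library except nanoparticle library 2, at 0.0709 FPKM.

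Of 46 other p53 targets, 45 were in the table and 39 were tested: 22 rose, 13 fell and 4 did not pass, with a median log2 fold change of 0.35. The share called higher was 56.4%, beside 40.5% of all tested genes, a difference that was not tested. Btg2, an antiproliferative gene of the immediate early class, went from 2.4, 2.14 and 1.97 FPKM to 82.3, 87.1 and 86.5 FPKM. Cdkn1a, the p21 gene, went from 5.31, 5.22 and 5.58 FPKM to 72.5, 78.5 and 77.9 FPKM. The groups of both genes were far apart. Falls of over 2-fold included those of the tetraspanin Cd82 (74.2 ± 2.19 to 29.1 ± 0.56 FPKM) and of Bbc3, which encodes the death protein PUMA (9.42 ± 0.238 to 3.54 ± 0.507 FPKM). Bax, the pore-forming death protein, rose from 44.1 ± 2.9 to 61.6 ± 0.971 FPKM (log2 fold change 0.47; limma, adjusted p = 4.16e-06), a call lost with the span and length trend removed (0.02, adjusted p = 0.626, limma). With that trend removed, the list had 16 higher, 14 lower and a median of 0.07. Of its calls 53.3% were then higher, beside 44.6% over all tested genes, whose median was -0.08. Without that step these shares were 62.9% and 46.8%.

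Of 24 cell cycle genes that p21 and DREAM hold down in cells with active p53, all were tested: 20 rose, 2 fell and 2 did not pass, with a median log2 fold change of 0.71. The share called higher was 83.3%, beside 40.5% of all tested genes, a difference that was not tested. Of the 24 genes, 8 were called higher by at least 2-fold on the log2(FPKM + 1) scale, beside 10.2% of all tested genes. The smallest called rise was that of Ccnb2, at 1.1-fold. Cdc20, the activator of the anaphase ubiquitin ligase, went from 61.7 ± 2.1 to 231 ± 4.64 FPKM, Aurka, a mitotic kinase, from 45.2 ± 0.715 to 167 ± 0.997 FPKM, and Kif23, a kinesin of cytokinesis, from 21.1 ± 0.285 to 60.2 ± 2.11 FPKM. The 2 that fell were the spindle checkpoint kinase Bub1b (37.3 ± 0.198 to 25.4 ± 0.223 FPKM) and the phosphatase Cdc25c (19.2 ± 1.65 to 14.2 ± 1.4 FPKM). With the span and length trend removed, 20 were higher and 3 lower, with a median of 0.46. Of these calls 87% were higher, beside 44.6% over all tested genes. Cdkn1a was also higher in these same libraries, and its part in the values of these genes was not tested.

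**Figure D5:**
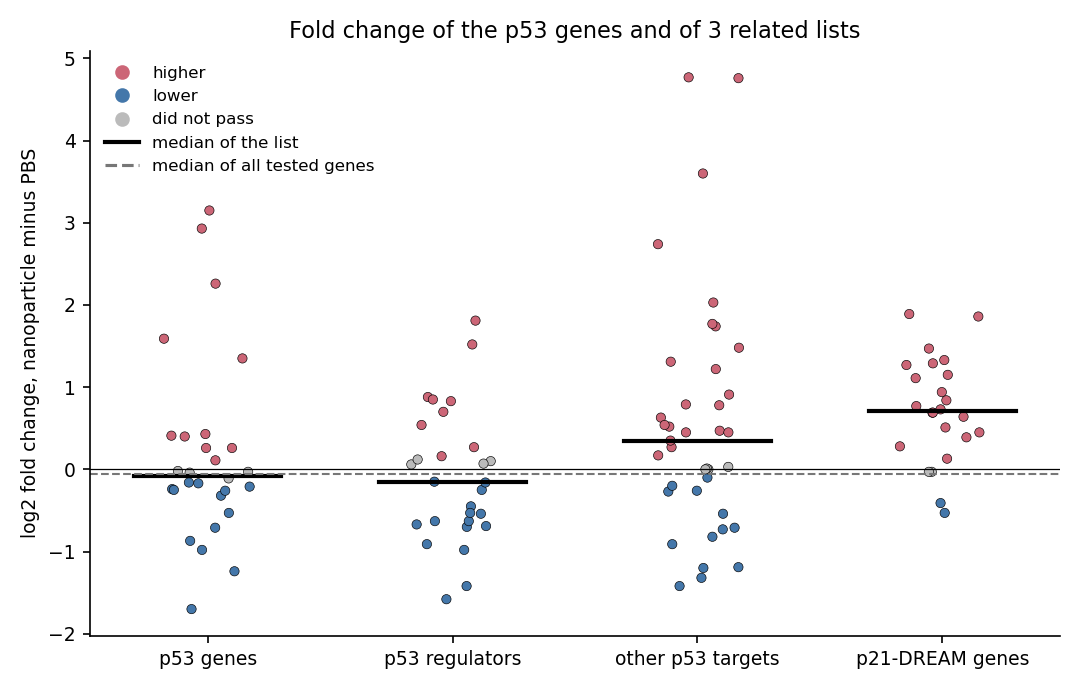
Log2 fold change, nanoparticle minus PBS, of the tested genes of each list (points, coloured by call, spread sideways at random), with the list median (black bar) and the median of all tested genes (dashed line, -0.06). The p53 genes have a median of -0.07, the regulators -0.16, the other targets 0.35 and the p21-DREAM genes 0.71.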

How the data were processed

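RNA of 6 samples of 4T1 cells (3 PBS, 3 nanoparticle) was sequenced after mRNA enrichment, per the labels' protocols. The authors deposited 1 table of values taken here as FPKM; its header names no unit, and the unit was inferred because products with exonic length gave nearly equal sums in all 6 libraries. STAR and featureCounts, with builds GRCm38 and mm10, are named per the submitters' processing notes; no source used here names the program behind the FPKM values. The 701 features without a gene identifier (0.631% to 0.67% of the summed FPKM) were left out.

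Values were transformed to log2(FPKM + 1) and fitted across all genes by limma (version 3.58.1, under R 4.3.3; robust fitting from statmod 1.5.0; trend and robust settings, two-sided, no replicate block). In simulated data of 10863 genes for this comparison, recovery was 72% at a 1.25-fold change, 98% at 1.5-fold and 100% at both 2-fold and 4-fold. There were 6 false calls among 10663 unchanged genes, and genes were simulated independently. Only 50 genes per fold were changed, all with a PBS level above about 5 FPKM. The rates therefore do not cover lower genes or data in which 86.4% of genes are called.

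Positions, span and exonic length came from GENCODE M21 (GRCm38), matched for 99.8% of tested genes, and promoter sequences from RefSeq (GRCm38.p6). Summaries and plots used Python 3.11.15 (pandas 2.3.3, matplotlib 3.10.9). The p53 genes, the lists and the tests were chosen with earlier results of these data known. Values in every library are given for the p53 family, its regulators, the sestrins, the Polo-like kinases and the 5 largest rises and falls; of each other list, the 3 largest called rises and falls and Cdkn1a, Bax, Bbc3, Atm and Cdkn2a are named, except for items that are not reported here. The alternatives were a pseudocount of 0.1, no filter, a mean of at least 5 FPKM, TPM and median-of-ratios scaling, a threshold of 0.01, a replicate block, removal of the span and length trend (splines over both, centred on their mean), and each library left out in turn.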

Additional observations from a re-analysis of the deposited data

How the results depend on the processing

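Of the 24 calls among the p53 genes, 17 kept call and direction in every alternative that tested them; the exceptions were Abhd4, Ephx1, Ppm1d, Sesn2, Trp53, Xpc and Zmat3. The number called stayed within 1.5 times of 11 higher and 13 lower under all 14 alternatives. Leaving out a library gave 11 higher and 11 to 13 lower. The median log2 fold change moved from -0.07 to -0.02 with no filter on low values, to -0.19 on the TPM scale, to -0.02 with median-of-ratios scaling and to -0.17 with the span and length trend removed, and ranged from -0.13 to -0.07 with a library left out (-0.13 without nanoparticle library 2). TPM scaling moved the median of all genes by -0.131. It also took the number of lower p21-DREAM genes from 2 to 4. The direction turned for Sesn2 (-0.01), Sesn3 (0.40), Polk (0.35) and Abhd4 (-0.19) with the span and length trend removed, for Sesn3 (0.02), Polk (0.02) and Fdxr (0.01) with median-of-ratios scaling, and for Abhd4 (-0.04) and Atm (-0.07) on the TPM scale; the cause was not tested. Fdxr ranged from -0.15 to 0.07 with a library left out. No pairing by replicate number was seen: same-numbered libraries had correlations of deviations of -0.014, -0.043 and 0.041. Differently numbered libraries ranged from -0.077 to 0.094. These values cannot show whether the samples were paired by design. With the replicate number as a block, 11 p53 genes were higher and 12 lower, and Xpc was the only call lost (adjusted p = 0.051, limma). The depth is unknown, so no counting error is given, and the 5 genes under 1 FPKM cannot be compared firmly.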

Other observations

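Within the list of other p53 targets, the death genes went both ways; this grouping was chosen after their values were seen and has no test. Tnfrsf10b, a TRAIL receptor, rose from 28 ± 0.425 to 38.6 ± 1.14 FPKM and Pidd1, a scaffold of caspase activation, from 2.07 ± 0.237 to 2.7 ± 0.132 FPKM. Shisa5 rose more than either, from 83 ± 0.943 to 234 ± 3.21 FPKM. Apaf1, the core of the apoptosome, fell from 4.9 ± 0.207 to 2.59 ± 0.133 FPKM, Trp53i11 from 22.2 ± 0.697 to 9.13 ± 0.631 FPKM, Siah1a, a ubiquitin ligase, from 14.8 ± 0.713 to 8.51 ± 0.38 FPKM and Bid from 37.4 ± 1.16 to 30.9 ± 0.125 FPKM (SD, n = 3 per group). Pmaip1, which encodes NOXA, was listed at 0 in all PBS libraries and averaged 0.0643 FPKM with nanoparticles. Gdf15, a stress cytokine that is a common readout of p53, was listed at 0 in all PBS libraries and averaged 0.078 FPKM with nanoparticles. Rrm2b, the p53-inducible subunit of ribonucleotide reductase, rose from 9.09 ± 0.477 to 14.7 ± 0.833 FPKM, while Gadd45a fell slightly, from 36 ± 0.309 to 33.6 ± 1.1 FPKM.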
